A study of Gallus gallus with 10 samples.

Results

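In chicken duodenal crypts, 20 annotated features had a higher FPKM in every library from hens fed a pair of lactobacilli than in every library from hens on the basal diet, by a factor of at least 2. They were chosen by their FPKM values, from rows with Ensembl chicken gene identifiers, by requiring an FPKM of at least 5 in all 7 pair-fed libraries and a lowest pair-fed value at least 2 times the highest control value. Of 17108 rows with such identifiers, 4439 met the FPKM minimum and 20 of those (0.451%) met both conditions. One identifier was left out beforehand. Its lowest pair-fed FPKM was 0.577 times its highest control FPKM, so it would not have met the second condition. FPKM is the number of sequenced fragments assigned to a feature, divided by its length and by a total for the library.

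The hens were brown Hy-Line layers at peak egg production, and each diet was given for 30 days. There were 2 libraries from the pair labelled L. sa. + L. ag., 2 from L. sa. + L. av., 2 from L. ag. + L. av., and 3 from the basal diet as control. For 1 further pair-fed library the title names L. ag. + L. av. and the description names L. sa. + L. av., so it is called the library of unclear pair and counted only as pair-fed. All groups received the same basal diet, and no group received a single bacterium, so the contribution of 1 bacterium of a pair cannot be told apart from that of the other. No label ties a library to a hen of its own, so spreads and p-values here describe these libraries and may be partly technical.

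Crypts are the pits at the base of the intestinal villi. They hold the stem cells that renew the epithelium, the dividing cells that these produce, and secretory cells such as Paneth cells, whose granules carry antimicrobial proteins. Lactobacilli are lactic acid bacteria that live in the gut of birds and are fed to poultry as probiotics. The deposited table gives identifiers only and pairs none with a gene name. The reference gene table (assembly bGalGal1.mat.broiler.GRCg7b) holds 0 Ensembl identifiers, so 0 of the 20 features matched a gene, and no function, position or sequence is given for them here. For the same reason the markers of crypt cell types could not be checked. The 2 features with the highest ratio of lowest pair-fed to highest control FPKM are given by identifier, and each of the others by its length, which differs for all 20. In a bulk preparation, more cells of a type and more RNA per cell cannot be told apart.

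The reads recovered from the FPKM values came to between 15.3 M and 17.6 M in each pair-fed library and to between 21.7 M and 23.7 M in each control. The totals by which the authors divided were 0.572 to 1.10 times the recovered reads in pair-fed libraries and 0.755 to 1.28 times in controls. Depth thus differed along with the diet. The totals themselves were 9.15 M to 19.4 M in pair-fed libraries and 16.5 M to 30.3 M in controls. Among pair-fed libraries, only replicate 1 of L. ag. + L. av., at 19.4 M, lay above the lowest control total. The effect of the division on the 20 features is given below, and the part of depth was not tested.

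The feature with the widest separation was ENSGALG00000017926, of 329 bp. It had 1684 and 1994 FPKM with L. sa. + L. ag., 3388 and 1905 FPKM with L. sa. + L. av., 1015 and 1445 FPKM with L. ag. + L. av., 1645 FPKM in the library of unclear pair, and 108, 101 and 103 FPKM in the control libraries. Every pair-fed library thus lay at least 9.37 times above the highest control, and the controls spanned a narrow range. Its mean was 1868 ± 744 FPKM in pair-fed libraries (SD, n = 7) and 104 ± 3.92 FPKM in controls (SD, n = 3), an 18.0-fold difference of means. Because this contrast chose the feature, the values are a description and carry no test.

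ENSGALG00000025557, of 287 bp, came next, with a ratio of 8.99. Its levels were 621 and 323 FPKM with L. sa. + L. ag., 559 and 278 FPKM with L. sa. + L. av., 331 and 411 FPKM with L. ag. + L. av., 391 FPKM in the library of unclear pair, and 26.6, 30.9 and 23.4 FPKM in controls. Unlike the 329-bp feature it had its highest value in a library of L. sa. + L. ag. and its lowest in one of L. sa. + L. av. The means were 416 ± 128 FPKM with a pair (SD, n = 7) and 27.0 ± 3.77 FPKM in controls (SD, n = 3), a 15.4-fold difference.

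A pair of features of almost the same length stood next in order. The one of 322 bp had 389 and 490 FPKM with L. sa. + L. ag., 765 and 480 FPKM with L. sa. + L. av., 226 and 369 FPKM with L. ag. + L. av., 424 FPKM in the library of unclear pair, and 30.1, 30.3 and 24.3 FPKM in controls. The one of 321 bp was far less abundant. It had 19.8 and 18.0 FPKM with L. sa. + L. ag., 30.0 and 18.2 FPKM with L. sa. + L. av., 9.49 and 23.5 FPKM with L. ag. + L. av., 24.3 FPKM in the library of unclear pair, and 2.05, 1.74 and 1.89 FPKM in controls. Both were highest in replicate 1 of L. sa. + L. av. and lowest in replicate 1 of L. ag. + L. av., as ENSGALG00000017926 was. Ratios of lowest pair-fed to highest control were 7.43 for the 322-bp feature and 4.62 for the 321-bp feature. These 4 features alone passed a ratio of 3, which is 0.0901% of the 4439 features past the FPKM minimum.

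The levels of ENSGALG00000017926 and the 322-bp feature kept a similar proportion across all libraries while both differed widely between diets. The FPKM of the first was 3.88 to 4.50 times that of the second in the 7 pair-fed libraries and 3.32 to 4.24 times in the 3 controls. ENSGALG00000025557 did not follow them as closely. ENSGALG00000017926 was 2.71 to 6.86 times as high as it in pair-fed libraries and 3.25 to 4.39 times in controls. The 322-bp feature was 15.7 to 27.2 times as high as the 321-bp feature with a pair and 12.9 to 17.4 times in controls. The 321-bp feature rested on 59 to 130 reads in pair-fed libraries and on 10 to 20 reads in controls, which limits that last proportion. Whether any of these features share sequence, and so reads, was not tested.

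**Figure D1:**
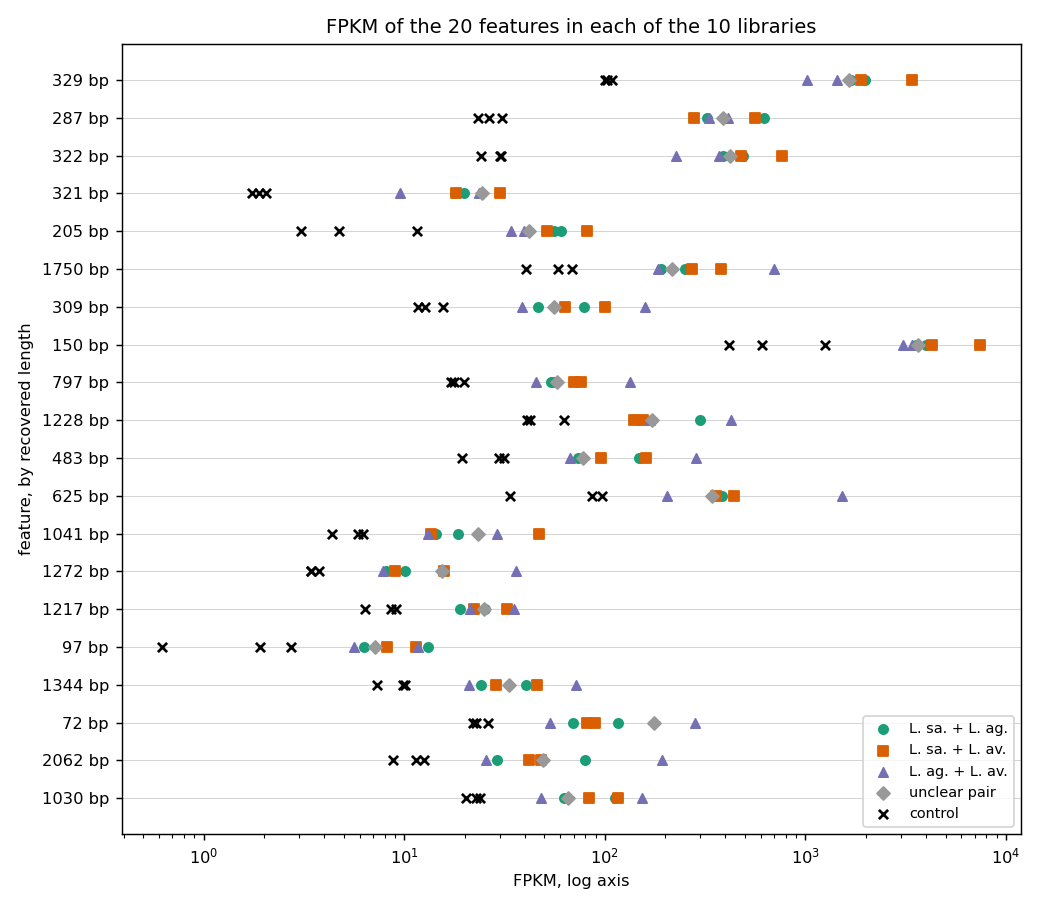
FPKM (log axis) of each of the 20 features in the 7 pair-fed libraries, coloured by pair, and in the 3 control libraries (black crosses), with features labelled by length and ordered by the ratio of lowest pair-fed to highest control. The first feature from the top, of 329 bp, lies between 1015 and 3388 FPKM with a pair and between 101 and 108 FPKM in controls, while the 1030-bp feature at the bottom comes closest to its controls.

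The most abundant of the 20 was a feature of 150 bp. It had 4005 and 3569 FPKM with L. sa. + L. ag., 7466 and 4262 FPKM with L. sa. + L. av., 3067 and 3402 FPKM with L. ag. + L. av., 3642 FPKM in the library of unclear pair, and 415, 606 and 1248 FPKM in controls. Its controls were spread, with the highest 3.01 times the lowest, and control replicate 3 set its ratio of 2.46. The means were 4202 ± 1491 FPKM with a pair (SD, n = 7) and 757 ± 436 FPKM in controls (SD, n = 3).

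A feature of 205 bp also had spread controls. It was at 60.6 and 55.6 FPKM with L. sa. + L. ag., 81.6 and 51.6 FPKM with L. sa. + L. av., 34.0 and 39.4 FPKM with L. ag. + L. av., 42.1 FPKM in the library of unclear pair, and 3.05, 11.6 and 4.72 FPKM in controls. Control replicate 2 held the highest of these control values. The reads behind them were few, 19, 64 and 16 in the controls, against 74 to 226 in pair-fed libraries. The 97-bp feature rested on fewer still, with 5 to 22 reads in pair-fed libraries and 8, 5 and 1 reads in controls, so its ratio of 2.07 rests on very few reads. The shortest feature, of 72 bp, had 73 to 202 reads with a pair and 31 to 48 reads in controls.

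Of the 20 features, 10 were up to 500 bp long, against 182 of the 4439 features past the FPKM minimum (4.10%). Their median length was 554 bp and ranged over 72 to 2062 bp, where the median of all features past the minimum was 1749 bp. The short ones also stood further from controls. Mean pair-fed FPKM was 4.81 to 18.0 times the control mean in the 10 features up to 500 bp (median 6.93) and 3.22 to 7.11 times in the 10 longer ones (median 4.15). Over all 4439 features the median of this fold was 1.29. Length entered the rule only through the division in FPKM. The fold is the contrast that chose the features, and that of the 182 short features past the minimum is not given. The boundary of 500 bp was chosen with earlier results of these data known, and no test was made.

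The longer features differed from the leading short ones in the library where they peaked. A feature of 625 bp had 387 and 347 FPKM with L. sa. + L. ag., 358 and 439 FPKM with L. sa. + L. av., 204 and 1522 FPKM with L. ag. + L. av., 344 FPKM in the library of unclear pair, and 33.7, 96.5 and 86.8 FPKM in controls. Both the lowest and the highest pair-fed library were thus replicates of L. ag. + L. av., 7.46 times apart. The longest feature, of 2062 bp, showed the same order at its ends, with 25.5 and 193 FPKM in the L. ag. + L. av. libraries, 29.2 to 79.8 FPKM in the other 5 pair-fed libraries and 8.81 to 12.6 FPKM in controls.

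Abundance was also high for a 1750-bp feature. It stood at 190 and 250 FPKM with L. sa. + L. ag., 379 and 272 FPKM with L. sa. + L. av., 185 and 696 FPKM with L. ag. + L. av., 217 FPKM in the library of unclear pair, and 40.5, 68.6 and 58.6 FPKM in controls. Its ratio of 2.70 was the highest among features over 500 bp. A 1228-bp feature departed from this order, since its lowest pair-fed value lay in L. sa. + L. av. It was at 298 and 148 FPKM with L. sa. + L. ag., 154 and 141 FPKM with L. sa. + L. av., 168 and 428 FPKM with L. ag. + L. av., 172 FPKM in the library of unclear pair, and 41.0, 42.4 and 62.7 FPKM in controls.

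The 1041-bp feature alone peaked in replicate 2 of L. sa. + L. av. Its values were 14.4 and 18.7 FPKM with L. sa. + L. ag., 13.6 and 47.0 FPKM with L. sa. + L. av., 13.2 and 29.2 FPKM with L. ag. + L. av., 23.3 FPKM in the library of unclear pair, and 6.27, 4.37 and 5.87 FPKM in controls. The steadiest pair-fed levels belonged to the 1217-bp feature, at 18.9 to 35.5 FPKM with a pair and 6.36 to 9.10 FPKM in controls. It was the only one of the 20 whose highest pair-fed library was less than 2 times its lowest, at 1.88 times.

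The remaining 7 features, of 72, 309, 483, 797, 1030, 1272 and 1344 bp, all peaked in replicate 2 of L. ag. + L. av. and were lowest in replicate 1 of the same pair. Among them the 309-bp feature ranged from 38.8 to 158 FPKM with a pair and from 11.8 to 15.6 FPKM in controls. The 483-bp feature ranged from 67.1 to 284 FPKM with a pair and from 19.4 to 31.6 FPKM in controls. The 1272-bp feature was at 7.83 to 36.2 FPKM with a pair and 3.42 to 3.75 FPKM in controls. None of these 7 overlapped its controls, as the rule requires, but 1 library of L. ag. + L. av. stood close to them and the other far above. Mean pair-fed FPKM of the 7 was 3.86 to 5.80 times the control mean.

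Counted over all 20 features, replicate 1 of L. ag. + L. av. was the lowest pair-fed library for 16, against 31.4% of the 4439 features. Replicate 2 of the same pair was the highest for 12, against 32.9%. All 5 features that peaked in replicate 1 of L. sa. + L. av. were up to 329 bp long, and 9 of the 12 that peaked in replicate 2 of L. ag. + L. av. were over 500 bp. The first count is drawn from values that the rule used, since the rule reads the lowest pair-fed value. In these 16 features replicate 1 of L. ag. + L. av. set that value. Without that library 180 features would meet the conditions, the same 20 among them.

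**Figure D2:**
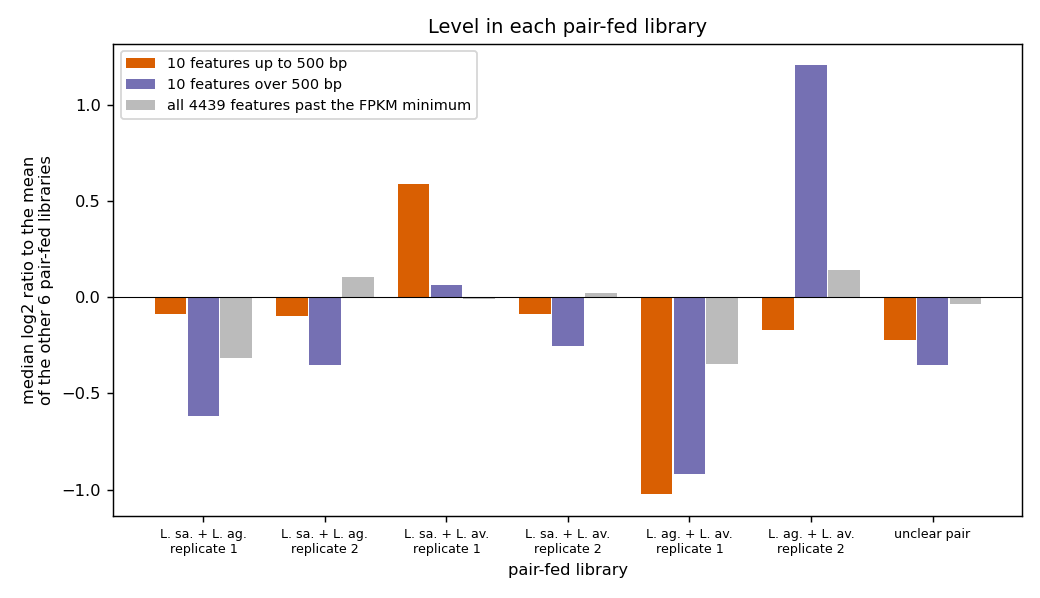
Median log2 ratio of each pair-fed library to the mean of the other pair-fed libraries, for the 10 features up to 500 bp, the 10 features over 500 bp and all 4439 features past the FPKM minimum. The long features stand at 1.20 in replicate 2 of L. ag. + L. av., where the short ones stand at -0.17, and the short ones stand highest, at 0.59, in replicate 1 of L. sa. + L. av.

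Relative to the mean of the other pair-fed libraries, the 10 longer features had a median log2 ratio of 1.20 in replicate 2 of L. ag. + L. av. and of -0.92 in its replicate 1. The 10 short features had -0.17 and -1.02 in the same libraries. In replicate 1 of L. sa. + L. av. the median was 0.59 for short and 0.06 for longer features. Over all 4439 features the medians of these 3 libraries were 0.14, -0.35 and -0.01. The 2 replicates of a single pair were thus on opposite sides of the other pair-fed libraries for the longer features.

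By diet, the median fold of the 20 features over the control mean was 4.63 with L. sa. + L. ag. (2.59 to 17.7), 5.51 with L. sa. + L. av. (3.03 to 25.5), 6.37 with L. ag. + L. av. (3.54 to 13.7) and 4.29 in the library of unclear pair (2.89 to 15.8). Over the 4439 features these medians were 1.22, 1.32, 1.23 and 1.31. The diet with the highest mean was L. ag. + L. av. for 12 of the 20 features, against 30.6% of the 4439. It was L. sa. + L. av. for 7, against 41.0%, and L. sa. + L. ag. for 1, against 28.4%. The 12 features are those that peaked in replicate 2 of L. ag. + L. av., so this order rests on that library. Leaving it out, the median fold over control across the 20 features was 4.31, against 5.40 with all 7 pair-fed libraries. All of these folds share the 3 control libraries.

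**Figure D3:**
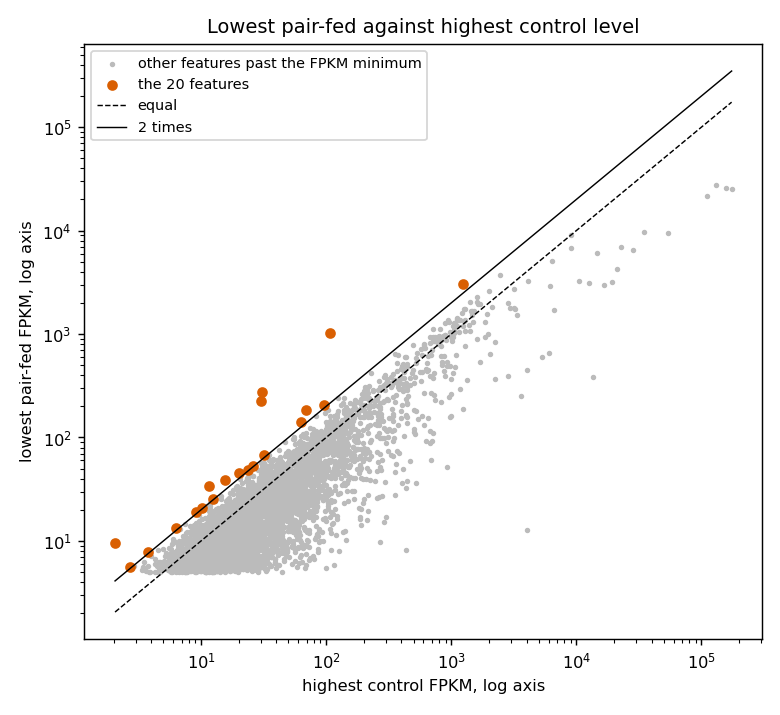
Lowest pair-fed FPKM against highest control FPKM (log axes) for the 4439 features past the FPKM minimum, with the 20 features in orange and lines at equal levels (dashed) and at 2 times (solid). Of the 20, 3 lie far above the solid line at highest control values of 30.3 to 108 FPKM, and most others lie just above it.

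Most of the 20 stood close to the boundary. The 3 just inside it had ratios of 2.01 (1030 bp, lowest pair-fed 48.1 and highest control 23.9 FPKM), 2.03 (2062 bp, 25.5 and 12.6 FPKM) and 2.04 (72 bp, 53.1 and 26.1 FPKM). The 3 just outside had ratios of 1.99 (859 bp, 14.7 and 7.40 FPKM), 1.97 (901 bp, 162 and 82.4 FPKM) and 1.97 (4174 bp, 21.7 and 11.0 FPKM). At a ratio of 1.5 there were 140 features (3.15%), and in 992 (22.3%) the lowest pair-fed value lay above the highest control. Under the same conditions, 15 of 389 features with the authors' own numbered identifiers (3.86%) were higher in every pair-fed library. In the other direction, 8 of 5063 features with Ensembl identifiers and an FPKM of at least 5 in all controls (0.158%) had their highest pair-fed value at no more than 0.5 times the lowest control.

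Levels varied more among pair-fed libraries than among controls for 17 of the 20 features, by the coefficient of variation (SD over mean), as for 65.4% of the 4439 features. The median coefficient was 44.1% over the 7 pair-fed libraries and 17.3% over the 3 controls, where all 4439 features had medians of 30.2% and 21.5%. The 3 exceptions were the 97-bp, 150-bp and 205-bp features, with 60.2%, 57.7% and 70.3% in controls. The lowest control coefficient among the 20 belonged to ENSGALG00000017926, at 3.77%, against 39.8% with a pair. The rule favours features with no high control, so a narrow control range is partly fixed by the choice. The pair-fed coefficient also pools 7 libraries of different diets, while the 3 controls share the basal diet, so the coefficients are not like measures.

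The rule did not compare pairs with each other, but it held every pair-fed library at 2 or more times the highest control. That limits the differences between pairs that the 20 features can show. The control values that the rule read also enter the spread of the fit. Differences between pairs were tested with limma on log2(FPKM + 1) over 12040 features, with Benjamini-Hochberg adjustment over all of them. None of the 20 features passed an adjusted p of 0.05 in any of the 3 comparisons, and every adjusted p was 1. Of all features tested, 0 passed for L. sa. + L. ag. relative to L. sa. + L. av., 0 for L. sa. + L. av. relative to L. ag. + L. av., and 1 (0.00831%), not among the 20, was lower with L. sa. + L. ag. than with L. ag. + L. av. At an unadjusted p under 0.05, 1 of the 20 was higher with L. sa. + L. av. than with L. ag. + L. av., where 0.905% of all features were, and 0 were lower, where 2.02% of all were. That count of 1 fell to 0 with a robust prior, library weights, only the compared groups or the replicate block. A mean FPKM of at least 5, division by all recovered reads and the unclear library placed in L. ag. + L. av. also gave 0. It was 1 with a pseudocount of 0.1, median-ratio scaling, quantile normalization or the unclear library placed in L. sa. + L. av. With no filter it was 2. The counts under these settings take both directions together, and the features behind them are not given. This list leaves out the fits without 1 library, in which a pair is left with 1 library. Median differences from such fits are given below. The unadjusted count was 0 of the 20 in both directions for L. sa. + L. ag. relative to L. sa. + L. av., where 0.739% of all features were higher and 0.889% lower. It was also 0 for L. sa. + L. ag. relative to L. ag. + L. av., where 0.615% were higher and 3.46% lower. In that comparison the median log2 difference of the 20 features was -0.94 without replicate 1 of L. ag. + L. av. It was 0.59 without replicate 2 of that pair, so the count of 0 rests on libraries that pulled the median to opposite signs. With 2 libraries in each pair the intervals were wide, so these tests do not show that the pairs act alike.

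That 1 feature was the 322-bp feature, at 623 FPKM on average with L. sa. + L. av. and 297 FPKM with L. ag. + L. av. The log2 difference was 1.07 ± 0.47 (SE, 95% interval 0.01 to 2.12), with an unadjusted limma p of 0.048 and an adjusted p of 1. ENSGALG00000017926 had nearly the same difference, 1.07 ± 0.53 (SE, 95% interval -0.11 to 2.25, limma adjusted p = 1), from means of 2647 FPKM with L. sa. + L. av. and 1230 FPKM with L. ag. + L. av. Leaving out 1 library moved it to 0.65 without replicate 1 of L. sa. + L. av. and to 1.48 without replicate 2, and the difference of the 322-bp feature lay between 0.71 and 1.42. Both libraries of L. sa. + L. av. lay above both of L. ag. + L. av. in these features and in 4 of the 20 in all, against 12.8% of the 4439, and below both in 1 of the 20, against 9.01%. Both libraries of L. sa. + L. ag. lay above both of L. ag. + L. av. in 4 of the 20 (11.4% of the 4439) and below in 0 (7.10%). They lay above both of L. sa. + L. av. in 0 of the 20 (9.42%) and below in 3 (10.9%). ENSGALG00000025557 differed less between these pairs, by 0.10 ± 0.52 (SE, 95% interval -1.07 to 1.26).

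The lowest p for L. sa. + L. ag. relative to L. ag. + L. av. belonged to the 1272-bp feature, with means of 9.15 FPKM in L. sa. + L. ag. and 22.0 FPKM in L. ag. + L. av. and a log2 difference of -0.84 ± 0.59 (SE, 95% interval -2.16 to 0.47, limma adjusted p = 1). In L. sa. + L. ag. relative to L. sa. + L. av. it was the 1041-bp feature, with means of 16.5 FPKM in L. sa. + L. ag. and 30.3 FPKM in L. sa. + L. av. and a difference of -0.61 ± 0.57 (SE, 95% interval -1.89 to 0.67, limma adjusted p = 1). Both rest on 1 library. Without replicate 2 of L. ag. + L. av. the first was 0.19, and without replicate 2 of L. sa. + L. av. the second was 0.25.

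Across the 20 features the median log2 difference was -0.27 for L. sa. + L. ag. relative to L. sa. + L. av. (16 lower, 4 higher), -0.31 for L. sa. + L. ag. relative to L. ag. + L. av. (13 lower, 7 higher) and -0.0025 for L. sa. + L. av. relative to L. ag. + L. av. (10 lower, 10 higher). Of all 12040 features, 51.1%, 50.8% and 51.9% were lower, with medians of -0.01, -0.01 and -0.02. Those 4439 past the FPKM minimum had medians of -0.11, 0.02 and 0.12. The first median was -0.0057 without replicate 1 of L. sa. + L. av., -0.49 without replicate 2 of L. sa. + L. ag. and -0.08 after quantile normalization, so its size rests on single libraries. The second median turned to 0.59 without replicate 2 of L. ag. + L. av. and was -0.94 without replicate 1, so its sign rests on that pair's 2 libraries. In L. sa. + L. av. relative to L. ag. + L. av. the medians were 0.84 without replicate 2 and -0.75 without replicate 1.

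**Figure D4:**
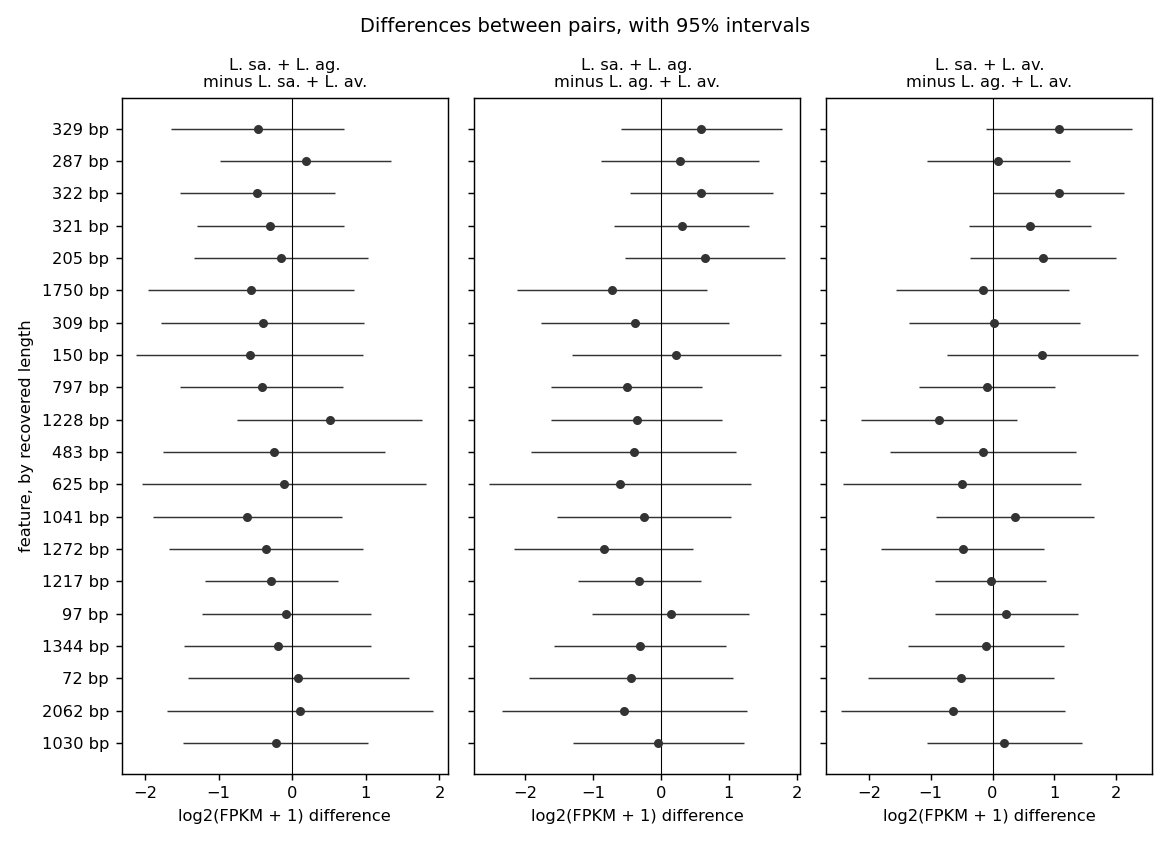
Differences in log2(FPKM + 1) between pairs for each of the 20 features, with 95% intervals from the limma fit over all 10 libraries. Intervals include 0 for all features in all 3 panels except the 322-bp feature in the right panel, whose interval is 0.01 to 2.12.

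How many of the 20 still met the conditions depended on how the libraries were scaled. As deposited, the median ratio of a library to the geometric mean of the 10 libraries was 0.994 to 1.03 in pair-fed libraries. In controls it was 0.966 to 1.03. Scaling by this ratio, which lay near 1 in all libraries and so could change little, kept 19 of the 20. Quantile normalization kept 13. When each library was divided by all of its recovered reads in place of the total that the authors used, 8 of the 20 still met both conditions, 7 of the 10 up to 500 bp and 1 of the 10 longer ones. The ratio of lowest pair-fed to highest control was then 5.97 for ENSGALG00000017926, 5.88 for ENSGALG00000025557, 5.49 for the 322-bp feature and 3.99 for the 321-bp feature. It was 2.04 for the 309-bp, 2.07 for the 150-bp, 2.08 for the 72-bp and 2.17 for the 1228-bp feature. In 19 of the 20 the pair-fed libraries still lay above all controls. The exception was the 97-bp feature, at 0.928. Under quantile normalization 19 of the 20 also lay above all controls, and the exception was the 150-bp feature, the most abundant, whose ratio was 0.888. The rule asked for a ratio of at least 2, so both counts of 19 are partly fixed by the choice. Totals were 0.572 to 1.10 times the reads in pair-fed libraries and 0.755 to 1.28 times in controls. Division by all reads could thus take no ratio of the 20 far below 1. The share of all features past the FPKM minimum without overlap is not given for either scaling. As deposited it was 22.3%.

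The same division changed how often a library was the highest or lowest. The deposited values of replicate 2 of L. ag. + L. av. rest on a total of 0.572 times its reads. It was then the highest pair-fed library for 8 of the 20 features and not 12, and for 6.20% of all 4439. Of all 4439 features, 44.4% were then lowest in this library, against 11.8% as deposited. Its median log2 ratio to the other pair-fed libraries was 0.39 over the 20 features and -0.52 over all, a gap of 0.91. As deposited these medians were 1.04 and 0.14, a gap of 0.90. Replicate 1 of L. ag. + L. av., with a total of 1.10 times its reads, was then the lowest for 3 features and not 16, and for 12.3% of all. Its median log2 ratio was -0.47 over the 20 features and 0.08 over all, a gap of -0.55, where the gap as deposited was -0.62. A change of the total scales all features of a library by 1 factor, so the 20 features moved with all others. Nearly equal gaps are thus fixed in advance by the arithmetic and say nothing about which division is better.

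**Figure D5:**
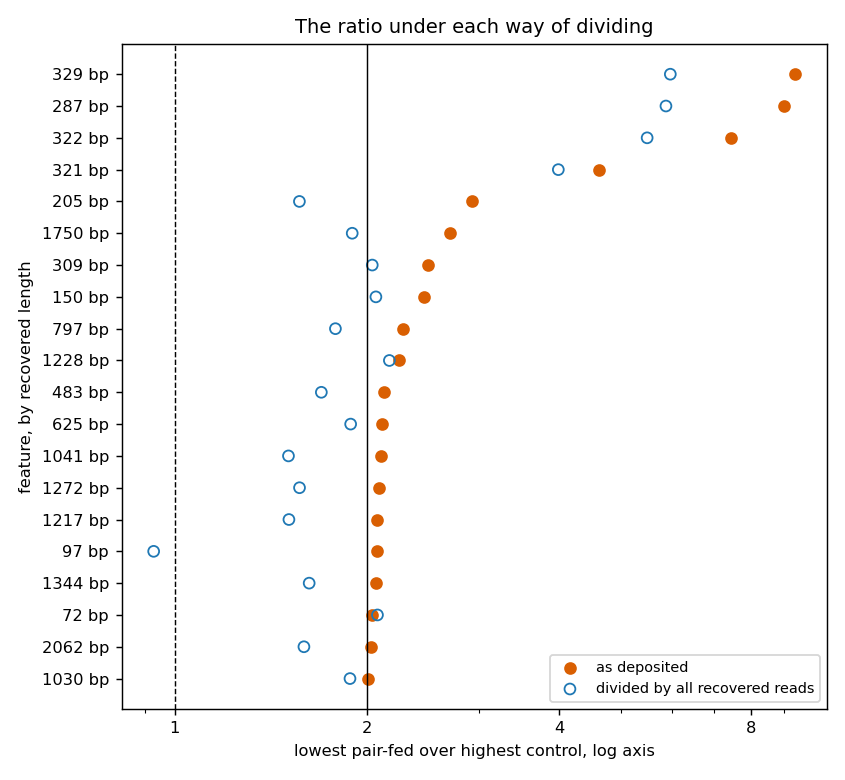
Ratio of lowest pair-fed to highest control FPKM (log axis) for each of the 20 features, as deposited (filled) and after division by all recovered reads (open), with lines at 1 (dashed) and 2 (solid). The 4 features at the top stay at 3.99 or above under both, while 12 of the 20 fall below 2 after division by all reads and 1, of 97 bp, falls below 1.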

How the data were processed

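The authors deposited 1 table of FPKM values for 19561 features in 10 libraries, 1 column for each. Tools listed in the submitters' processing notes are HISAT2, featureCounts 1.5.0-p3 and CASAVA 1.8, with no build. Annotation and library totals: not given in the sources used here. Most of the lowest FPKM values in a library were taken to rest on 1 read. Their reciprocals are then whole multiples of a step set by the library total. This gave library totals, and from these feature lengths and whole reads. The length taken was the smallest at which all values of a feature came within 0.02 reads of a whole number. Such a length was found for all 17375 features with a value above 0. Whole reads are thus a condition of the choice and no check of the lengths. The sum of these reads is the depth of a library, and no length or total comes from an annotation.

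FPKM was used as deposited. Pairs were compared by limma 3.58.1 (R 4.3.3; linear model with contrasts and a trended empirical Bayes prior, 2-sided) on log2(FPKM + 1), where changes of low features come out too small. An FPKM of 1 or more in 2 or more libraries was needed to enter the fit, which 12040 features met, and all 20 features described were among them. All 10 libraries were fitted together, the library of unclear pair with its own coefficient. The contrast with control chose the features and has no test. The features, lists and tests were chosen with earlier results of these data known. Gene lists and marker lists could not be used without gene names, so no list gave a result. The 2 features given by identifier had the highest ratio of lowest pair-fed to highest control, and features given by length for their values between pairs were picked after those values were seen. Code was tested on simulated data.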

Additional observations from a re-analysis of the deposited data

Results flagged for a closer look

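In 8 of the 20 features 1 pair-fed library stood far above the other pair-fed libraries, which was also so, on either side, in 392 of the 4439 features past the FPKM minimum (8.83%). The measure is the gap to the nearest library as a share of the range, read against Dixon's limit for 7 libraries. Chance flags about 1 in 20 groups of like libraries, and these 7 come from different diets. Replicate 2 of L. ag. + L. av. stood apart in 6 of the 20 features, and on the high side in 172 of the 4439. The gap was 0.821 of the range for the 625-bp feature, 0.718 for the 1272-bp, 0.676 for the 2062-bp, 0.649 for the 797-bp, 0.620 for the 1750-bp and 0.572 for the 483-bp feature. This library also had the lowest total in relation to its reads, 0.572. After division by all reads its median log2 ratio to the other pair-fed libraries was 0.39 over the 20 features and -0.52 over all 4439, and as deposited it was 1.04 and 0.14. Replicate 1 of L. sa. + L. av. stood apart in the other 2, and on the high side in 22 of the 4439. Its gap was 0.728 of the range for the 150-bp feature and 0.587 for ENSGALG00000017926.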

How the results depend on the processing

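The count of 20 features was 140 at a ratio of 1.5, 4 at a ratio of 3 and 13 after division by all recovered reads, an alternative added after seeing the data, with 8 of the 20 kept. With an FPKM minimum of 1 or 20, median-ratio scaling or quantile normalization it was 29, 15, 21 and 16. Leaving out a library can only add features, and gave 21 to 180, with 180 for L. ag. + L. av. replicate 1, 63 for control replicate 3 and 41 for control replicate 1. Of the 20, 19 were kept under median-ratio scaling and 13 under quantile normalization.

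Between pairs, none of the 20 features was called under any setting. For L. sa. + L. ag. relative to L. sa. + L. av. limma called 0 features as reported, 4 with no filter, and 1 each with a mean FPKM of at least 5, with library weights (whose estimate stopped short of its tolerance), with the unclear library placed in L. sa. + L. av. and after division by all reads. Leaving out a library gave 0 to 1. For L. sa. + L. ag. relative to L. ag. + L. av. it called 1, then 0 with a pseudocount of 0.1 or only the compared groups, 4 with no filter and 2 after division by all reads, and 0 to 8 without a library, 8 without L. ag. + L. av. replicate 2. For L. sa. + L. av. relative to L. ag. + L. av. it called 0, 1 with a pseudocount of 0.1, 1 with the replicate block, and 0 to 10 without a library, 10 without L. ag. + L. av. replicate 2. A pair left with 1 library was assumed to vary like the other groups. Relative to L. sa. + L. av., the log2 difference of the 1041-bp feature with L. sa. + L. ag. turned to 0.25 when L. sa. + L. av. replicate 2 was left out and was -1.47 when replicate 1 was. Relative to L. ag. + L. av., that of the 1272-bp feature was 0.19 without L. ag. + L. av. replicate 2 and -1.88 without its replicate 1. The cause was not tested. With the replicate number as a block the other two comparisons called 0 and 1, as without it. Of 12 pairs of libraries that share a number, some deviated together and others in opposite ways (correlations of -0.29 to 0.44). Between groups of 2 libraries each, both numbers give the same correlation by construction, so the 12 are not all separate values. The numbers were not taken to pair the libraries. Depth limits the 97-bp feature, which rests on 1 to 22 reads.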
